A study of Caenorhabditis elegans with 2 samples.

Results

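Binding of a GFP-tagged nuclear hormone receptor, NHR-20, was examined at the promoters of protein-coding genes on the arms of the *C. elegans* autosomes II, III, IV and V. The arms were taken as the first and the last 25% of each chromosome's length. A promoter ran from 1000 bp before to 300 bp after any annotated transcript start of a gene, and a gene is said to have a summit when the highest point of a thresholded peak lay there. Of the 6423 summits in the authors' thresholded list (ce11), 4103 lay on these 4 chromosomes, 2409 of them in promoters, and 815 of those on the 8 arms. The 815 arm summits make up 33.8% of the promoter summits of the 4 chromosomes (exact binomial 95% interval 31.9 to 35.8) and 12.7% of all summits. The other 1594 promoter summits lay between the arms, in what are called centres here.

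The chromatin came from whole hermaphrodite L1 larvae of strain OP515, genotype unc-119(tm4063) III; wgIs515, collected 6 h after synchronization as starved L1 larvae that hatched after bleaching. The wgIs515 insertion carries nhr-20 fused at its C-terminal end to GFP and FLAG, and the precipitation used an antibody against GFP on sonicated chromatin. There was 1 group of 2 biological replicates of this single line, each set against a shared control, and no precipitation from untagged larvae was analysed here. Whole larvae were used, so strong binding in few cells and weak binding in many cannot be told apart.

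Each *C. elegans* autosome has a gene-dense centre with little recombination and conserved genes, flanked by arms where recombination, repeats and young gene duplicates are more frequent. Several large families have expanded on the arms, among them F-box and MATH proteins, which pair target proteins with ubiquitin ligases, C-type lectins, seven-transmembrane chemoreceptors and nuclear hormone receptors. Nuclear hormone receptors such as NHR-20 are transcription factors with a zinc finger DNA-binding domain and a ligand-binding domain, and many of the nematode receptors have no known ligand. The comparison addressed here is which genes and families carry NHR-20 summits on the arms, and how strong those summits are beside the promoter summits of the centres.

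To show the kinds of DNA under the arm summits, 121 bp centred on the summit are given for 8 genes, read from the RefSeq sequence of WBcel235 (the ce11 build) on the strand of the gene named. They are tasp-1, the strongest arm summit (chrIII:10759193-10759313, plus strand); srh-2, an arm chemoreceptor gene with 4 summits (chrV:731447-731567, plus strand); hsp-1, a chaperone gene (chrIV:17278473-17278593, plus strand); and hlh-30, a transcription factor gene with 3 summits (chrIV:4028290-4028410, minus strand). The others are the expanded families' fbxb-85 (chrIII:10848974-10849094, minus strand), nhr-182 (chrV:2259903-2260023, minus strand), ugt-64 (chrV:3505885-3506005, minus strand) and gst-20 (chrII:13609782-13609902, minus strand). Capitals mark every match, on either strand, to one of the 7 hexamers searched, which were the receptor half-site AGGTCA, its variant half-site AAGTCA, the GATA factor site GATAAG, the E-box CACGTG, the repeat unit GAGAGA, the promoter box TATAAA and the usual end of a nematode intron, TTTCAG. Neighbouring matches to 1 hexamer can overlap by up to 4 letters and those to different hexamers by up to 3.
tasp-1: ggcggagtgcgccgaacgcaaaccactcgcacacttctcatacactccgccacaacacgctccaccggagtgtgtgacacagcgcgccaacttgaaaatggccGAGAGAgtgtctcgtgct
srh-2: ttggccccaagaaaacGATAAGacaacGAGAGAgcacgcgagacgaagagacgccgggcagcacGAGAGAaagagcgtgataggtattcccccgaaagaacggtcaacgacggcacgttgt
hsp-1: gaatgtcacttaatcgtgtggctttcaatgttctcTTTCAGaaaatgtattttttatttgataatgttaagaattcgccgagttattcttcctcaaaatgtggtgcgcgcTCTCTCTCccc
hlh-30: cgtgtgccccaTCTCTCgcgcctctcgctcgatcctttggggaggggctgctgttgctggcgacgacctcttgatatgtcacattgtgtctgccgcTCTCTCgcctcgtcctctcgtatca
fbxb-85: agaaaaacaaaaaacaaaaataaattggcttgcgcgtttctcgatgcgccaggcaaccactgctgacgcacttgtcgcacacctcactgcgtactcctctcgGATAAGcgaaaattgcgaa
nhr-182: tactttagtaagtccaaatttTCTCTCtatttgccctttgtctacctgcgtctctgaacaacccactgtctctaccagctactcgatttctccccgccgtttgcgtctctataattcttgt
ugt-64: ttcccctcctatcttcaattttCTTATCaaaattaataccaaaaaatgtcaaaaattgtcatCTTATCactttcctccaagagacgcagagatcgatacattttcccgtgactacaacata
gst-20: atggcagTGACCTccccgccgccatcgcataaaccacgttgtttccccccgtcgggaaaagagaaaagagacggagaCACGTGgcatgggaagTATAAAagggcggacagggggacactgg

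A match marks letters only. The summit sequence of srh-2 held 1 GATAAG and 2 GAGAGA, and that of hlh-30 held a pair of matches to GAGAGA on the other strand, which read TCTCTC. The sequence at ugt-64 held GATAAG in both of its matches, written CTTATC, and gst-20 held an AGGTCA match that began 53 bp before the summit, written TGACCT, and a CACGTG match that began 17 bp after it. Over all members, GAGAGA occurred within 100 bp of 37.8% of arm summits (34.5 to 41.2), of 33.8% of centre summits (31.4 to 36.1), and in the 201 bp up to the start of 14.4% of all arm genes and 17.1% of all centre genes. CACGTG stood at 9.08% of arm summits, 10.4% of centre summits and 4.37% of arm genes. The receptor half-site AGGTCA stood at 6.503% of arm summits, 8.03% of centre summits and 6.71% of arm genes, and AAGTCA at 6.75%, 8.72% and 8.65%. GATAAG was at 16.6% and 14.3% of summits and at 13.4% of arm genes. TATAAA and TTTCAG were less frequent around arm summits (18.04% and 18.2%) than in the windows of all arm genes (29.7% and 38.5%), as they were in the centres (19.0% and 17.6%, against 32.0% and 36.5%). Summit windows are centred on the summit and the gene windows end at the start, so the pairs of shares describe different positions. The base composition also differed, with a median GC content of 40.3% in the 201 bp around arm summits, 39.3% around centre summits and 33.3% upstream of arm genes. The part of base composition in the motif shares was not tested.

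Fewer genes carried an NHR-20 summit on the arms than in the centres. Of 6436 protein-coding genes on the arms, 962 had a promoter summit, which is 14.9% (14.1 to 15.8). In the centres 1856 of 7928 genes did, 23.4% (22.5 to 24.4), and over the 4 chromosomes the share was 19.6%. The arm share was 0.638 times the centre share. In lists of the same length cut from each replicate alone, arms and centres gave 15.1% and 23.6% in replicate 1 (ratio 0.638) and 15.3% and 22.7% in replicate 2 (ratio 0.671). Both replicates gave the same order, but genes of 1 list are not replicates. No test of the difference between arms and centres was made, and the intervals cover counting error only.

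The 8 arms also differed among themselves. The lowest shares were those of the right arm of V, where 88 of 1162 genes had a summit (7.57%, 6.12 to 9.25), and of the left arm of II, with 90 of 976 (9.22%, 7.48 to 11.2). The right arm of IV (12.1%), the left arm of III (15.4%), the left arm of V (16.6%) and the left arm of IV (17.4%) followed. The right arms of II (158 of 681, 23.2%, 20.1 to 26.6) and III (144 of 546, 26.4%, 22.7 to 30.3) were the highest. The centres stood at 25.1% on II (23.1 to 27.1), 28.9% on III (26.6 to 31.2), 20.6% on IV (18.8 to 22.4) and 21.2% on V (19.6 to 22.8). Each of the 8 arms was thus below the centre of its own chromosome, though the intervals of II right, III right and IV left overlap those of their centres. Neighbours in the middle of the order of arms also had overlapping intervals. Each replicate had V right and II left as the 2 lowest arms, at 8.26% and 8.81% in replicate 1 and at 8.69% and 8.91% in replicate 2.

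**Figure D1:**
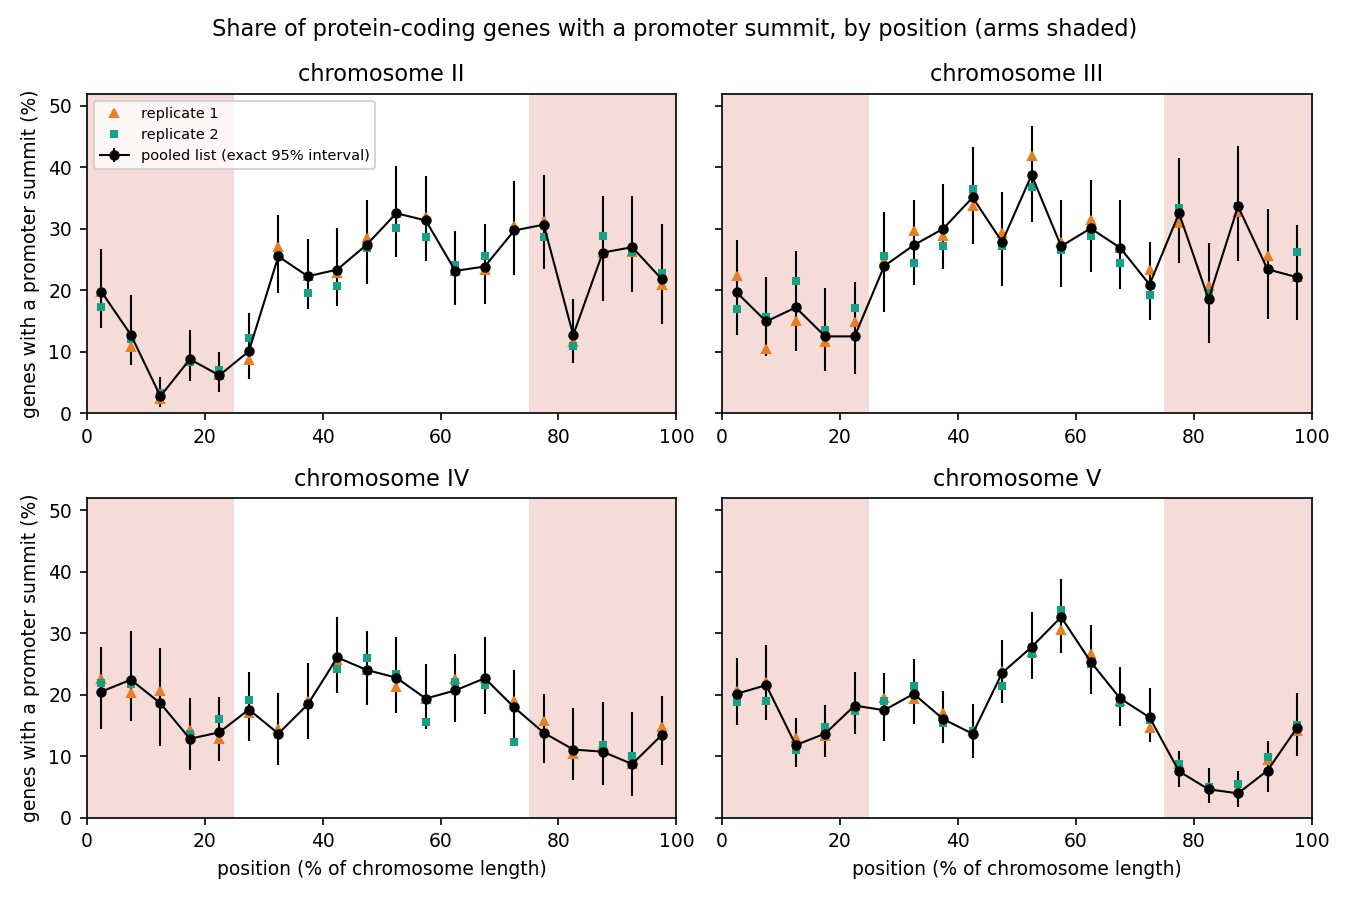
Percent of protein-coding genes with a promoter summit (vertical axis) in 20 bins of 5% of chromosome length (horizontal axis) on II, III, IV and V, with arms shaded, the pooled list in black with exact 95% intervals and each replicate's own list as coloured points. The lowest arm bin is on II at 10 to 15% of its length (2.76%) and the highest on III at 85 to 90% (33.6%), and replicate points lie close to the pooled ones.

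Shares also varied along single arms, as the plot by position shows. On II, 6 of 217 genes between 10% and 15% of the length had a summit (2.76%), where 47.5% of the genes belonged to expanded families. On V, 11 of 237 genes between 80% and 85% did (4.64%), with 51.5% of genes from expanded families, and 8 of 201 between 85% and 90% (3.98%), with 29.9%. In the highest arm bin, on III between 85% and 90% of the length, 36 of 107 genes had a summit (33.6%) and 4.67% of genes belonged to such families.

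The families called expanded here include some with more genes in the centres than on the arms. Examples are ugt (20 on arms, 38 in centres) and the transthyretin-related genes (13 and 30). Major sperm protein genes had 0 members on the arms and 31 in the centres. All 18 families together held 1613 of the arm genes (25.1%) and 961 of the centre genes (12.1%). Their content was highest on the left and right arms of V (41.7% and 38.2%) and on the left arm of II (27.4%), followed by III left (16.6%), II right (14.4%), IV left (14.3%) and IV right (13.8%), and lowest on the right arm of III (4.40%). The order of content was not the order of the shares with a summit, since V left had the highest content at a share of 16.6% and IV right had 13.8% content at a share of 12.1%. Members of these families had a promoter summit in 7.25% of cases on the arms (117 of 1613) and in 11.4% in the centres (110 of 961). Without them the arm share was 17.5% and the centre share 25.1%, a ratio of 0.699. The left arm of II then stood at 11.7% and the right arm of V at 9.89%, still the 2 lowest. A difference between arms and centres was thus also present among the remaining genes. What the difference follows, family content included, was not tested.

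The lower share was also seen in the authors' unthresholded candidates. At least 1 of the 30000 pooled candidate regions lay in the promoter of 37.3% of arm genes and 52.2% of centre genes. Among genes with a candidate, 40.1% on the arms and 44.8% in the centres had a thresholded summit. Repeated sequence, to which reads may not be assigned, was uncommon: windows with at least 50% of their 31-mers found elsewhere in the genome belonged to 4.23% of arm genes and 2.77% of centre genes. Only 4 of these 272 arm genes had a summit (1.47%, 0.402 to 3.72), and leaving such genes out gave 15.5% on the arms and 24.0% in the centres. The median share of repeated 31-mers per window was 0.944% on the arms and 0.0% in the centres. The part of read assignment in the shares with a summit was not tested. Per length, arms held 89.9 promoter summits per Mb of promoter window and centres 147, and outside promoters arms held 24.8 summits per Mb and centres 47.2. The share of all summits that lay in promoters was 57.1% on arms (54.5 to 59.7) and 59.6% in centres (57.7 to 61.4), so summits away from promoters were thinner on the arms as well.

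Some families were gathered into 3 sets with results of these data known, so differences between sets partly follow from that choice. The structural, signalling, regulator and metabolism lists are in none of the 3. Receptor and detoxification families (nhr, cyp, ugt and the glutathione S-transferases) had summits at 76 of 216 arm genes, 35.2% (28.8 to 42.0), above the 14.9% of all arm genes. The other expanded families had them at 41 of 1397, 2.93% (2.11 to 3.96), and lists of housekeeping genes at 41 of 61, 67.2% (54.0 to 78.7). The same order held in the centres, at 41.1%, 4.83% and 55.1%, and in each replicate's list, with 78, 40 and 41 arm genes in replicate 1 and 74, 40 and 44 in replicate 2. Median signals on the arms were 197, 130.0 and 322 in that order, and 170.1, 138 and 306 in the centres. In the housekeeping lists most arm genes with a summit had none in a promoter of that gene alone. Families were defined by the letters of the gene symbol, and the lists were chosen with results of these data known.

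**Figure D2:**
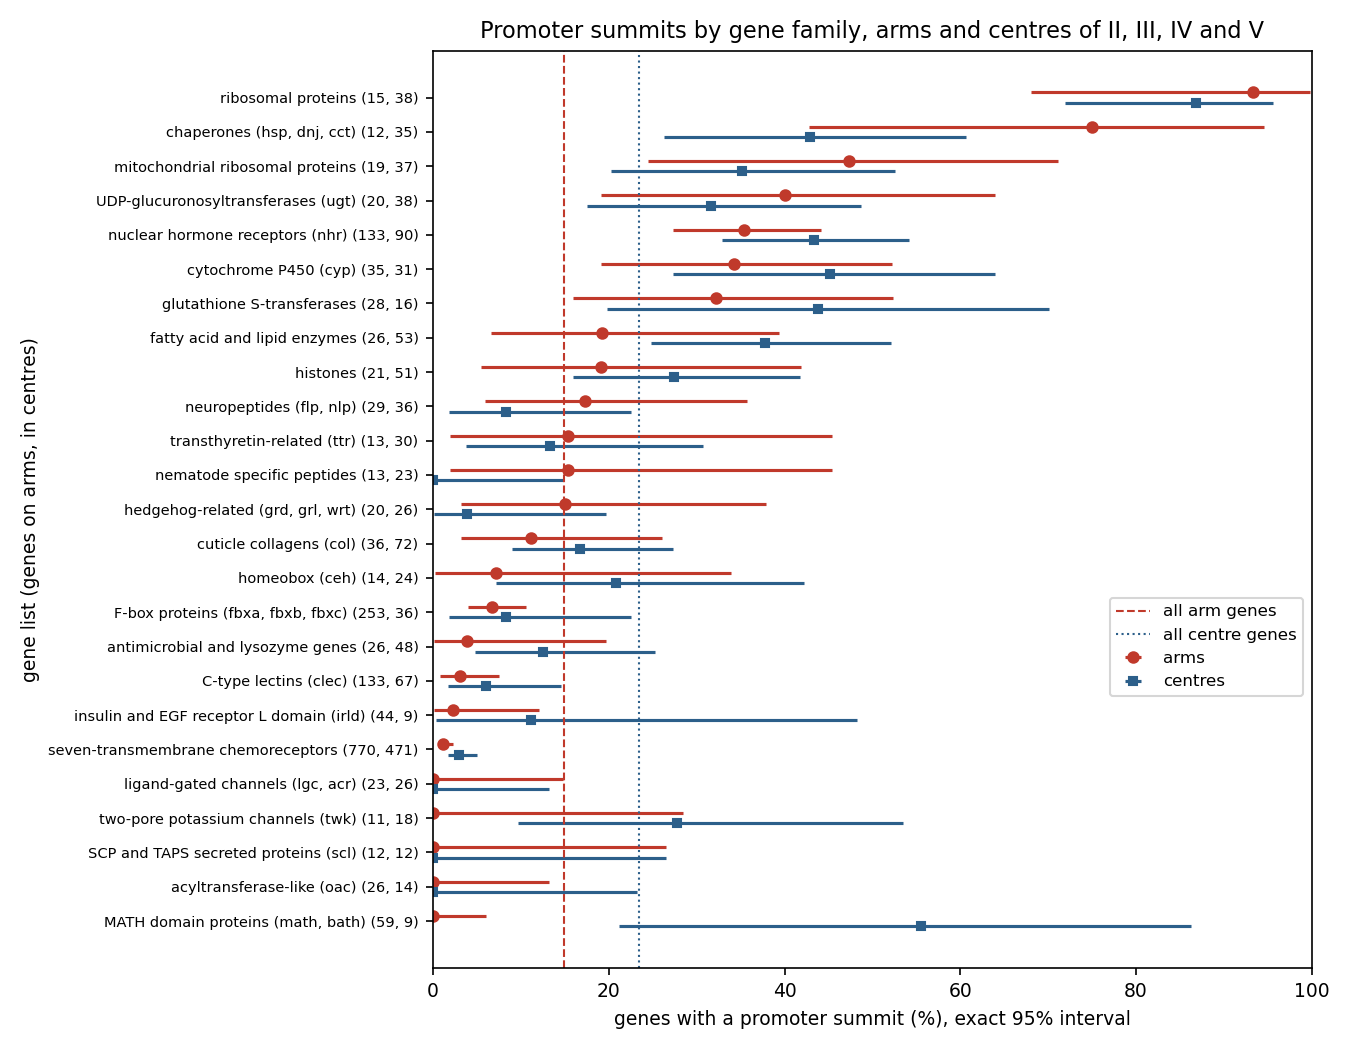
Percent of genes with a promoter summit (horizontal axis, with exact 95% intervals) in each gene list with at least 10 arm and 9 centre genes, arms as red circles and centres as blue squares, and vertical lines at the 14.9% of all arm genes and 23.4% of all centre genes. Ribosomal proteins and chaperones lie highest on the arms, the nhr, cyp, ugt and glutathione S-transferase families above the arm line, and chemoreceptors, lectins, F-box and MATH genes below it.

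Nuclear hormone receptor genes, the family of NHR-20 itself, contributed most. Of 133 arm members 47 had a promoter summit (35.3%, 27.3 to 44.1), and in the centres 39 of 90 did (43.3%, 32.9 to 54.2). The left arm of V carried 33 of these among its 74 receptor genes (44.6%), and the right arm of V 7 of 37 (18.9%, 7.96 to 35.2). In 41 of the 47 the summit stood in a promoter of that gene alone. The strongest was at nhr-57 (V, 4131485 to 4131886), a hypoxia-responsive receptor gene, 215 bp upstream of the start with a pooled signal of 554, 349.7 in replicate 1 and 199 in replicate 2. The summit at nhr-182 (V, 2259837 to 2260112), 36 bp upstream of its start and shared with F41B5.12, followed at 543, 332 and 222. The weakest of the 47 had a signal of 88.1 and the median was 184, close to that of all arm promoter summits. Replicate lists gave 49 and 46 receptor genes. The gene nhr-20 itself lies in the centre of III (4230436 to 4233219) and had 0 promoter summits.

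Some further receptor genes are named here after their values were seen. nhr-80, which is required for normal synthesis of unsaturated fatty acids, had a signal of 151 near the left end of III, shared with H10E21.1. nhr-114, known for its role in the response to diet and tryptophan, had 224 on the left arm of V. On a short stretch of that arm (V, 2192224 to 2231335), nhr-13 (399), nhr-133 (271), nhr-56 (339.9) and nhr-134 (117) each had a summit in a promoter of their own. Summits at nhr-41 and nhr-193 lay 32 and 609 bp from the start of a tRNA gene.

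Enzymes that modify and conjugate foreign compounds had summits in shares near that of the receptors. Cytochrome P450 genes, which oxidize lipids and foreign compounds, had them at 12 of 35 arm members (34.3%, 19.1 to 52.2), 11 of them among the 25 on the left arm of V. The strongest summit (V, 2250137 to 2250462) had a signal of 467, with 314 in replicate 1 and 156 in replicate 2, and lay between cyp-33C7 and cyp-33C6, 895 bp upstream of the latter. In the cyp-33C group 7 of 11 genes on the left arm of V had a summit, with signals from 104 to 467, and in the cyp-34A group 3 of 6 did, from 124 to 279. The cyp-34A genes lie close together (V, 3957708 to 3972991), while the cyp-33C genes spread over a longer stretch (V, 712982 to 3803542), and summits of neighbouring copies are not independent observations.

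UDP-glucuronosyltransferases, which attach sugars to small molecules, had summits at 8 of 20 arm genes (40.0%, 19.1 to 63.9), all of them among the 17 on the left arm of V. The strongest were those of ugt-13 (414.5, with 294 and 125 in the replicates) and ugt-64 (385, with 266 and 117). ugt-9 and ugt-11 shared 1 summit with a signal of 265. Glutathione S-transferases, which conjugate glutathione, had summits at 9 of 28 arm genes (32.1%, 15.9 to 52.4), each in a promoter of that gene alone, and 6 of these stood among the 18 on the right arm of II. The strongest were at gst-20 (II, 13609698 to 13609987, signal 521, with 316 and 204) and gst-27 (II, 15165941 to 15166216, signal 468, with 297 and 169.7). In the centres the shares were 14 of 31 for cyp, 12 of 38 for ugt and 7 of 16 for the transferases, with intervals that overlap those of the arms in each family.

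Chemoreceptors, the largest family of the arms, and lectins had few summits. Seven-transmembrane chemoreceptors, which detect odours and tastes in sensory neurons, had a promoter summit at 9 of 770 arm genes (1.17%, 0.536 to 2.21) and 14 of 471 centre genes (2.97%, 1.63 to 4.94). Apart from srh-2 and srh-269 (225, whose summit lay 34 bp from a tRNA gene start) their signals were 126 or lower. C-type lectins, secreted or membrane proteins with roles that include defence, had summits at 4 of 133 arm genes (3.01%, 0.825 to 7.52). These were led by clec-241 (292, shared with clc-13) and clec-126 (286, 60 bp from a tRNA gene start). Only 13.6% of arm chemoreceptor genes and 21.1% of arm lectin genes had even a candidate region in the promoter, against 68.4% of arm receptor genes of the nhr family.

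F-box genes had summits at 17 of 253 arm members (6.72%, 3.96 to 10.5) and 3 of 36 centre members. The strongest pair stood in promoters shared with another gene, fbxa-90 with efl-1, an E2F-type transcription factor (V, 16965733 to 16965976, signal 751), and fbxb-85 with hex-3 (III, 10848916 to 10849150, signal 669). The summit lay 959 bp from the start of fbxa-90 and 180 bp from that of efl-1. Of the 17 genes, 10 had a summit in a promoter of their own. The left arm of II, with 97 F-box genes, had 4 with summits, and the right arm of V, with 62, had 3. The left arm of V had 4 of 6 (66.7%, 22.3 to 95.7). Chromosome III had 2 of 59 on its left arm and 2 of 8 on its right. The right arms of II and IV had 1 of 4 each, and the left arm of IV 0 of 13.

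MATH domain genes had 0 summits among 59 arm members, which with 0 in 59 allows a share of up to 6.06% (exact 95% limit), while 5 of 9 centre members had one. The centre genes were bath-36, bath-38, bath-42, bath-44 and math-33, named after their values were seen, and 4 of the 5 shared the summit with another gene. Skp1-related genes (0 of 12), acyltransferase-like oac genes (0 of 26) and the secreted scl proteins (0 of 12) also had 0 on the arms. For irld receptor-domain genes 1 of 44 had a summit (irld-11, signal 127), for antimicrobial and lysozyme genes 1 of 26 (fipr-17, shared with Y48A6B.3, signal 368), and for the pals family, known from the response to intracellular pathogens, 2 of 16, led by pals-22 (137). Lists of 12 to 26 genes give wide limits, 26.5% at 0 of 12 and 13.2% at 0 of 26.

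Most of the smaller lists were near the 14.9% of all arm genes or had intervals that include it. Secreted nlp peptides of the left arm of V, of which nlp-29 and its neighbours are epidermal antimicrobial genes, had summits at 5 of 9 genes, and no other flp or nlp gene of the arms had one (5 of 29 in all), with 1 strong summit between nlp-31 and nlp-34 (V, 3979825 to 3980145, signal 456, with 315 and 144). Cuticle collagens had 4 of 36 on the arms, led by col-71 (299.5, shared with Y49F6B.2) and col-42 (198). Transthyretin-related genes had 2 of 13, the stronger at ttr-45 (558), nematode specific peptides 2 of 13 (nspe-8, 489.8) and hedgehog-related genes 3 of 20, of which grl-26 (130.0) lay 11 bp from a tRNA gene start and grd-10 had 129. Histone genes had 4 of 21, with his-3 and his-4 sharing a summit of 247, but 57.1% of arm histone windows were repeated sequence. Ligand-gated channel genes (0 of 23), two-pore potassium channels (0 of 11), insulin-like genes (0 of 7) and ztf zinc finger genes (0 of 6) had none, which allows shares of up to 14.8%, 28.5%, 41.0% and 45.9% in that order. In the centres two-pore potassium channels had 5 of 18, beside 23.4% of all centre genes, and ztf genes 5 of 8. Among regulators, ceh-83 (107) was 1 of 14 homeobox genes and hlh-30 1 of 5 hlh genes.

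Lists of mostly housekeeping genes held the highest shares on the arms, with the vacuolar pump list (1 of 3) lower. Cytosolic ribosomal protein genes had a promoter summit at 14 of 15 arm members (93.3%, 68.1 to 99.8) and 33 of 38 centre members (86.8%, 71.9 to 95.6). Their arm median signal was 449.8, with a range from 172 to 1873. In 4 of the 14 a summit stood in a promoter of that gene alone. The same held for 3 of 9 mitochondrial ribosomal protein genes, 3 of 9 chaperone genes and 1 of 4 proteasome genes with arm summits. Mitochondrial ribosomal protein genes had 9 of 19, led by mrpl-28 (795, the strongest summit of the left arm of II) and mrps-7 (727). Chaperone genes had 9 of 12 (interval 42.8% to 94.5%) and 15 of 35 in the centres (42.9%, 26.3 to 60.6), and proteasome genes 4 of 4, with pbs-1 at 343 and rpt-4 at 209.7. Aminoacyl tRNA synthetase genes had 4 of 8, led by ears-2 (543) and aars-1 (244), all in windows shared with another gene. Lipid enzyme genes had 5 of 26 on arms and 20 of 53 in centres, with acdh-9 (579.6) and lbp-9 (447) the strongest arm members. The vacuolar pump gene vha-19 (129) and the ABC transporter gene haf-3 (701, shared with F57A10.2) were the single members of their lists with a summit. Genes known only by a sequence name had a summit in 10.7% of 2806 cases on the arms and in 17.0% of 3320 in the centres.

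The strongest arm summit (III, 10759063 to 10759493) lay 54 bp upstream of tasp-1, which encodes a threonine aspartase, in a window shared with K01G5.10. Its pooled signal of 2130.45 ranked 9 of 6423, with 1310.33 in replicate 1 and 853 in replicate 2. The summit upstream of rpl-15, a large subunit ribosomal protein gene, shared with K11H12.8 (IV, 654760 to 655079), had 1873, with 1135 and 764, and ranked 14. Both ranked within the first 14 in each replicate as well. After them came Y39E4B.6 on III (1483, with 977 and 513), cox-5A, a subunit of cytochrome oxidase (1443, with 884 and 563), and rpl-12 with lin-54, a component of the DREAM complex (1334, with 833 and 509.9). For each of these 5 the replicate 1 value exceeded that of replicate 2, as it did at the medians of the lists, and each list has its own scale.

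Chaperone genes stood at 3 of the 20 strongest arm summits. The DnaJ-type dnj-13 shared its summit with F54D5.9 (II, 11545352 to 11545646, signal 1244, with 820.4 and 421). The mitochondrial chaperonin gene hsp-60 shared one with Y22D7AL.10 (III, 1618985 to 1619302, signal 1242, with 717 and 528), the strongest of the left arm of III. The constitutive Hsp70 gene hsp-1 had its own (IV, 17278296 to 17278755, signal 1173, with 685 and 487). Chaperone genes named beyond these after their values were seen were cct-8 (793), hsp-6 (455), cct-7 (381) and the heat-inducible pair hsp-16.2 and hsp-16.41, which share 1 summit of 268. The summits of cct-8, hsp-6 and cct-7 were shared with Y55F3AR.2, C37H5.5 and T10B5.4 in that order. The start of the other gene was nearer at hsp-60 (203 bp against 610), cct-8 (188 against 433) and hsp-6 (195 against 405).

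The rest of the 20 were varied. They included the translation factor gene drr-2 with the methyltransferase gene set-16 (1269.7), the mRNA cap methyltransferase gene cmtr-1 (1261), eelo-2 (1127), Y75B8A.23 with the timeless relative tim-1 (959), Y56A3A.33 (954), dld-1, the dihydrolipoamide dehydrogenase (941), and pqn-51 with K11D12.14 (935). Lower came rps-28 with Y41D4B.4 (902), pcn-1, the replication clamp PCNA (854), F08G2.5 (835) and the RNA helicase gene mog-4 (829). Of the 20, 9 stood in windows of 2 genes and 11 in windows of 1. The summit at cmtr-1 lay 77 bp from the start of a snoRNA gene and that of Y75B8A.23 47 bp from the spliced leader gene sls-2.8, so the protein-coding gene is not the nearest start there. Annotated non-coding RNA genes of no named class were also nearer than the protein-coding start at some summits. They started 28 bp from the summit at dnj-13 (against 209 bp) and 120 bp from that at hsp-1 (against 426 bp). At dld-1 the distances were 49 and 246 bp, and at F08G2.5 they were 54 and 946 bp. The strongest promoter summits of the centres, at rpl-3 (2711), rpl-18A with Y17G9B.5 (2220), cdc-48.1 (2174), rpl-35 (1935) and iff-2 with F54C9.14 (1893), included 3 ribosomal protein genes among 5.

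srh-2 stood apart from the other chemoreceptor genes. Its strongest summit (V, 731312 to 731767), 98 bp downstream of an annotated start, had a signal of 1266, with 768 in replicate 1 and 484 in replicate 2, the strongest of the left arm of V. A further summit 902 bp upstream of an annotated start had 286, with 156 and 129, and 1 lying 948 bp upstream of another start had 93.3. The remaining summit, of 403, was shared with icl-1, whose product serves the glyoxylate cycle and whose start lay 102 bp away. These assignments rest on the annotated starts of srh-2 alone.

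Most arm genes with a summit had 1 (888 of 962), 63 had 2, 9 had 3 and 2 had 4. Those with 2 or more were 7.69% on the arms (6.09 to 9.56) and 10.02% in the centres (8.69 to 11.5). din-1, a corepressor that works with the receptor DAF-12, also had 4 (546, 338, 166 and 118) at separate transcript starts on the right arm of II. Among genes with 3 were Y43F8B.2 (629, 339 and 93.3), atx-2 (558, 164 and 104, the first pair shared with ecps-1) and the bZIP gene zip-2 (531, 267 and 88.4, the last pair shared with ceeh-1). hlh-30, the TFEB-type regulator of autophagy and fat use, had 3 as well (353, 207 and 96.4), and so did the hypoxia factor hif-1 (383, 163 and 119), which is named after its values were seen. The weakest summit of din-1, Y43F8B.2, atx-2, zip-2 and hlh-30 was not matched among the strongest regions of both replicates.

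Where arm genes carried a summit, its signal was much like that in the centres. Both sets come from 1 thresholded list with a lowest signal of 86.0, so the lower ends of their ranges are partly set by that list. Signals of candidates outside the list were not compared. The median pooled signal of the 815 arm summits was 187 (order-statistic 95% interval 176 to 199.7), with quartiles at 123 and 328 and a range from 86.7 to 2130.45. In the centres the median was 180.2 (173 to 189.7), with quartiles at 121 and 313 and a range from 86.0 to 2711. The ratio of medians was 1.04, and for the same summits, where a replicate had a candidate within 200 bp, it was 1.04 in replicate 1 (125 against 121) and 1.07 in replicate 2 (68.2 against 63.8). The intervals of the arm and centre medians overlap in each of the 3 lists. Among the 100 strongest summits of the genome, 37 were promoter summits of these chromosomes and 12 of these lay on arms (32.4%, 18.01 to 49.8). Among the strongest 1000, arms held 152 of 436 (34.9%, 30.4 to 39.5), near the 33.8% of the whole list.

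**Figure D3:**
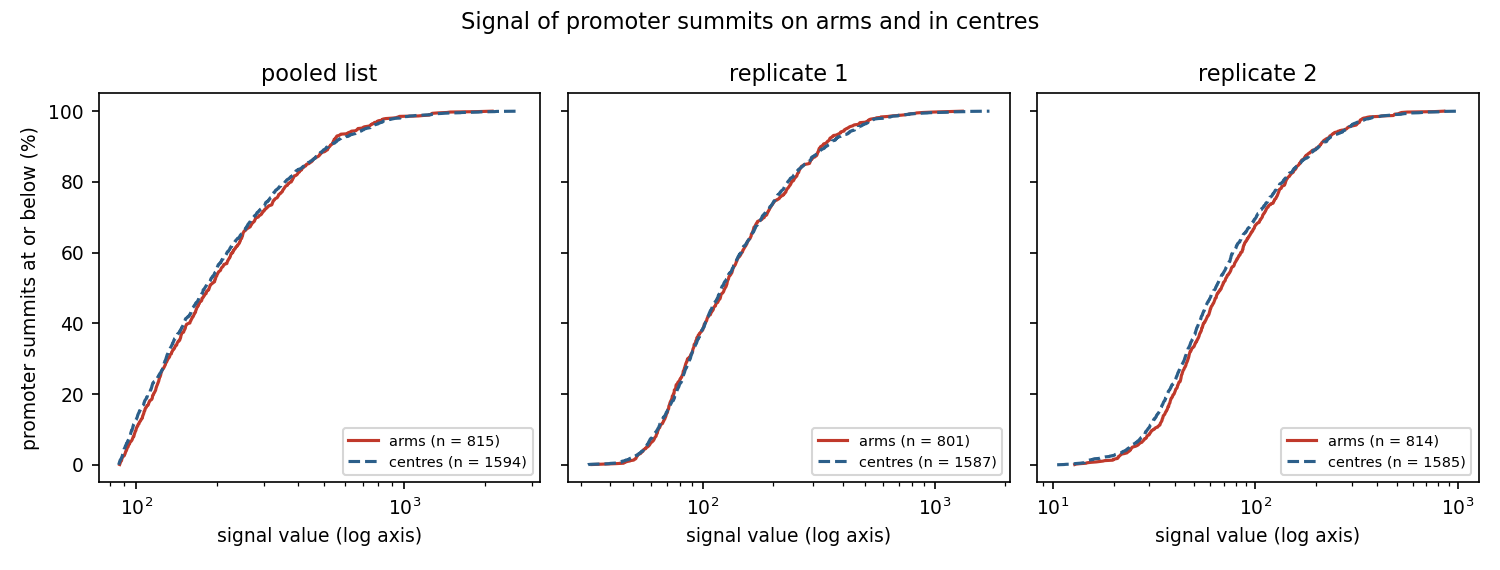
Cumulative percent of promoter summits (vertical axis) at or below each signal value (horizontal log axis), arms as solid red and centres as dashed blue lines, in the pooled list and in each replicate. The arm and centre curves lie close together in all 3 panels, with medians of 187 and 180.2 in the pooled list.

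Medians by arm ran from 141 on the left arm of III (124 to 188) to 232 on the right arm of IV (169.4 to 296). Those of II left and V right, with the lowest shares of genes, were 168 each, and that of II right was 222. The intervals of neighbouring arms in this order overlap. Summits in windows of 2 or more genes had higher signals than those at a single gene, with medians of 241 and 173 on the arms and 231 and 168 in the centres. Such windows held 217 of the arm summits, 26.6% (23.6 to 29.8), and 28.0% of the centre summits. Promoter summits were also stronger than other arm summits, whose median was 152 (144 to 161).

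Members lay by rule from 1000 bp upstream to 300 bp downstream of a start, so most of the window was upstream. The nearest start was taken among starts whose window held the summit. Within this window, arm summits gathered near the start. The summit was upstream of the nearest start in 93.0% of cases on the arms and 91.3% in the centres, and within 300 bp upstream in 63.6% (60.1 to 66.9) and 57.2% (54.7 to 59.7). The median distance was 172 bp on the arms and 201.5 bp in the centres. Arm summits were also more isolated, with another summit within 1000 bp in 13.4% of cases (11.1 to 15.9) against 19.5% (17.6 to 21.5), and a median gap to the next summit of 5080 bp against 3306 bp. Over the same length the arms held 1427 summits of all kinds and the centres 2676. The part of this lower density in the isolation was not tested. A tRNA, snRNA, snoRNA or rRNA gene started within 200 bp of 22 arm summits (2.70%) and 48 centre summits (3.01%), and a tRNA gene within 1000 bp of 16 arm summits (1.963%) and 25 centre summits (1.57%). For both shares the intervals of arms and centres overlap.

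**Figure D4:**
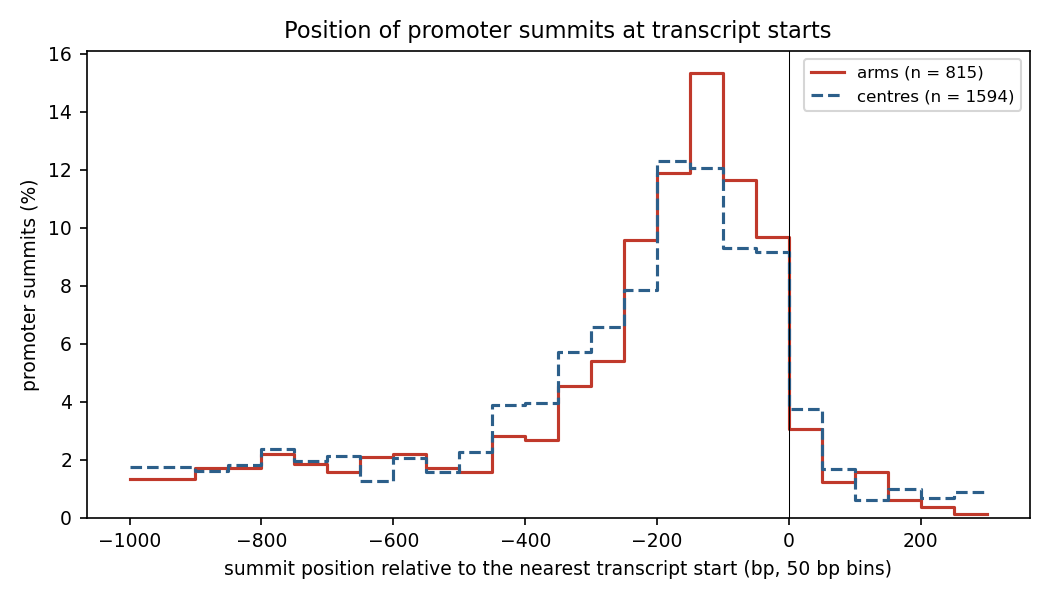
Percent of promoter summits (vertical axis) by position relative to the nearest transcript start in bp (horizontal axis, bins of 50 bp), arms as a solid red line and centres as a dashed blue line. The axis spans the window that defines members. Both lines peak just upstream of the start, with median distances of 172 and 201.5 bp.

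Genes beside a copy of their own family were counted apart. A gene was counted as tandem when an adjacent gene had the same letters in its symbol, which was so for 17.5% of arm genes and 9.84% of centre genes. Of 1126 tandem arm genes, 91 had a promoter summit (8.08%, 6.56 to 9.83), and of the other 5310 arm genes 871 did (16.4%, 15.4 to 17.4). In the centres the shares were 12.3% and 24.6%. Among arm genes without a tandem neighbour the ratio to the centres was 0.666, near the 0.638 of all genes. Families with similar tandem shares differed in their shares with a summit. On the arms 54.9% of nhr, 54.3% of cyp and 64.3% of glutathione S-transferase genes were tandem, with summits at 32.1% to 35.3%. For F-box (60.9% tandem), MATH (72.9%), chemoreceptor (56.0%) and lectin genes (58.6%), summits stood at 6.72%, 0%, 1.17% and 3.01%. Of arm ugt genes 35.0% were tandem and 40.0% had a summit. Tandem and other genes were not compared within families.

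Most members were found in both replicates, in a list that the authors had already thresholded on reproducibility between replicates. The shares and correlations given here are therefore partly set by that selection. A summit within 200 bp among the 6423 strongest regions was present in replicate 1 for 93.5% of arm summits, in replicate 2 for 89.9% and in both for 84.0% (685 of 815, 81.4 to 86.5), beside 81.9% in both for centre summits (79.9 to 83.7). The share fell with signal, from 98.8% among members in the strongest 25% of the whole list, through 98.1% and 87.6%, to 37.4% in the weakest 25% (29.8 to 45.5). Among all 30000 candidates of each replicate, 98.2% of arm summits were matched in both. Replicate signals of the 800 arm summits matched in both candidate lists correlated at 0.857 by rank (Spearman) and at 0.874 on log2 values (Pearson), given as a description, since summits share libraries. For centre summits the same measures were 0.839 and 0.863.

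**Figure D5:**
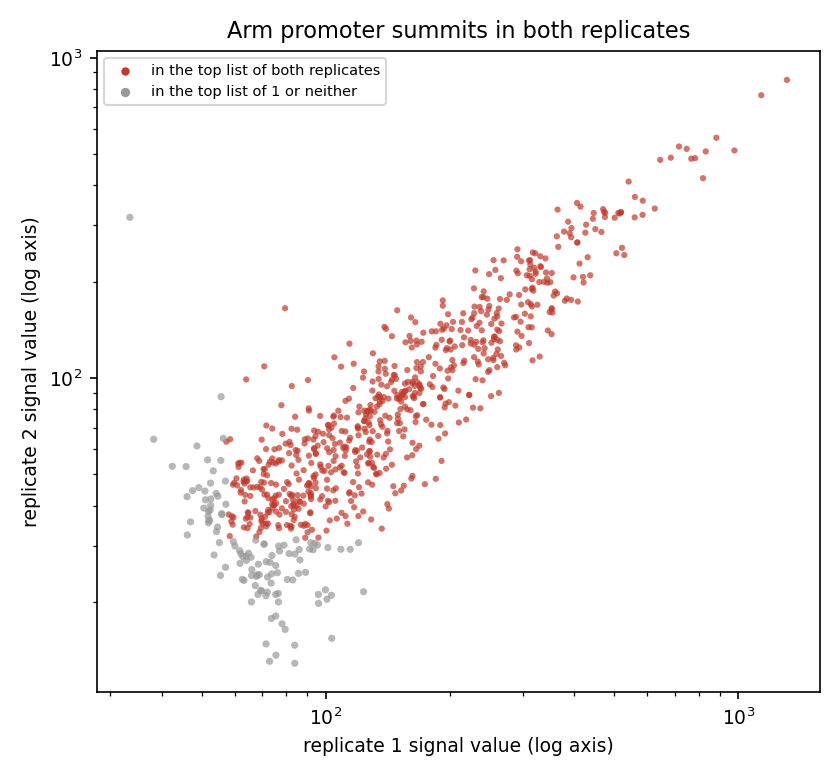
Signal of each arm promoter summit in replicate 1 (horizontal log axis) and in replicate 2 (vertical log axis), red where both replicates hold it among their 6423 strongest regions and grey otherwise. Most points follow 1 line and grey points gather at low signal, and the grey point at the upper left is a secondary summit at mog-4 (33.4 in replicate 1, 318 in replicate 2).

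A few members lacked a candidate within 200 bp in 1 replicate, while the other replicate had one. No candidate of replicate 1 lay within 200 bp of 14 arm summits, and none of replicate 2 within 200 bp of 1. The strongest of the 14, named after their values were seen, lay between rab-18, par-2 and kbp-4 (III, signal 703, with 281 in replicate 2), at mib-1 with gly-9 and smc-3 (368) and at T27A1.1 (300.5). At rab-18 the nearest replicate 1 candidate was 30911 bp away, while the summit ranked 300 in the pooled list. The gene gst-33 (248) was 1 of the 14. The secondary mog-4 summit was matched to the same replicate 2 summit as the main one, 208 bp away, so its replicate 2 value of 318 belongs to both.

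The border and the window decide who is a member, and 1 summit on each side is given without a comparison. The last summit inside an arm, 3380 bp from its border, was at fbxa-24 on II (130.0), and the first outside, 77 bp beyond, was at ttr-15 on III (217). The last summit inside the promoter window, 1000 bp upstream, was at C38C3.4 on V (196), and the first outside, 304 bp downstream, was at tba-7 on III (225). No summit on one side of a border was assigned to a gene start on the other (0 pairs).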

How the data were processed

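Chromatin immunoprecipitation of NHR-20-GFP from 2 biological replicates was analysed from narrowPeak lists on ce11. The authors deposited 30000 candidate regions per replicate and for the pooled replicates, and a thresholded pooled list of 6423. The thresholded list is labelled optimal IDR, a threshold on reproducibility between replicates. Both replicates were set against a single shared control alignment, per the authors' notes. The signal value of each region and its −log10 q-value are the authors' deposited values, and all 6423 share a −log10 q-value of 4.18, so only signal ranks them. No source used here gives the aligner, peak caller or reproducibility threshold. The files hold no read totals, so depth is unknown, and signals were compared only within a list.

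Summits were placed on Ensembl release 115 transcripts of WBcel235, the same build, with symbols from RefSeq for 14359 of 14364 protein-coding genes of II, III, IV and V. Sequences came from the RefSeq assembly. A replicate's own list was its 6423 regions of highest signal, and a match was a summit within 200 bp. Intervals are exact binomial (Clopper-Pearson) or order-statistic 95% intervals, computed with Python 3.11.15, numpy 2.4.6, pandas 2.3.3 and scipy 1.17.1, and cover counting error only. With 1 group and regions of 1 list, no test was made. Summit assignment was tested on simulated data. Named genes are those of the 20 strongest arm summits, the strongest summit of each arm, the strongest 2 bound arm genes of each family with 3 or more and the strongest 1 of others, the 5 genes with most summits, the 5 strongest centre summits, nhr-20 and the summits at the borders, and others are said to be chosen after their values were seen. The members, families and motifs were chosen with earlier results of these data known. Other borders, windows, gene models, signal limits and single replicates were tried as alternatives.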

Additional observations from a re-analysis of the deposited data

How the results depend on the processing

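The lower share of genes on the arms held its direction under all 13 alternatives, with ratios from 0.634 to 0.699, and the ratio of median signals stayed between 1.01 and 1.05 under 11. The ratio left its interval only without the expanded families (0.699, chosen after the data were seen). With arms widened to the outer 33.3% of the length on each side there were 1242 summits at 16.5% of genes. The share of arm genes was 11.9% with a window of 500 bp upstream to 100 bp downstream and 19.0% with 2000 and 500 bp. It was 11.7% with the nearest start only, 8.45% with windows of a single gene, 13.9% with RefSeq starts and 17.5% without expanded families. Peaks at or above the median signal left 450 arm summits at 9.15% of genes, with a median signal of 305 and 98.4% matched in both replicates, and single-gene windows gave a median of 173. These settings change which genes, windows or summits are counted, and the source of each shift was not tested. From the list of 1 replicate at a time, arm summits numbered 823 to 828, the share of arm genes was 15.1% to 15.3%, the ratio of shares 0.638 to 0.671 and the ratio of medians 1.02 to 1.05. The median signal itself was not compared between lists, which have their own scales. No paired analysis was possible because the samples form 1 group. Depth limits are unknown, and weak summits are the least certain, with 37.4% of arm summits in the weakest 25% of the list matched in both replicates.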
